A study of Homo sapiens with 12 samples.

Results

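LINC01518 is a long intergenic noncoding RNA gene on chromosome 10, 1 of the 43735 genes in the count table of this study and 1 of the 2108 listed there under a LINC number. It was chosen by its own read counts, since the gene was nearly absent from one of the myeloma lines and rose with withaferin A (WA) in the other. Its levels, its difference between the lines and its change with WA in MM1R are therefore given as a description, with no test. Tests are given only for other genes, namely the genes beside it, other noncoding RNAs and genes with a like pattern between the lines.

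The study compared MM1S and MM1R, multiple myeloma cell lines derived from a single patient, of which MM1S responds to glucocorticoids and MM1R is resistant to them. Each line was grown in RPMI-1640 medium with serum and left untreated or given 1 µM WA for 3 h, which makes 4 groups of 3 cultures. Replicates were cultures of different passage, 16, 22 and 23 for MM1S and 4, 6 and 7 for MM1R, so that line and passage range cannot be told apart. The untreated and WA cultures of a line shared their passage numbers, and each line is a single established line, so that the replicates carry no difference between patients. Passage is the only thing the labels give to set the replicates apart, and p-values measure the spread between such cultures.

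Between 17625110 and 19368343 reads per library were counted on genes. All 9 plasma cell markers (such as SDC1 and IRF4) had at least 10 reads in every library, with a summed level of 9948 to 12354 CPM (reads of a gene per 1000000 reads counted) in MM1S and 13212 to 18686 CPM in MM1R. Of 3 T cell, 3 myeloid, 3 epithelial and 3 fibroblast markers, only CD3E and COL1A1 reached 50 reads in any library, while CD3D, CD3G, COL1A2 and DCN had at most 1. COL1A1, a collagen chain, rose with WA in MM1R (log2 fold change 2.46, edgeR adjusted p = 0.00386), so that the summed fibroblast markers were 1.52 to 2.34 CPM untreated and 5.29 to 17.9 CPM with WA. In MM1S their sum was 0.497 to 1.09 CPM untreated and 2.30 to 6.55 CPM with WA. Its part in the results below was not tested. NR3C1, the glucocorticoid receptor gene, was lower in untreated MM1R than in untreated MM1S (log2 fold change -2.96, edgeR adjusted p = 2.15e-06).

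Long noncoding RNAs are transcribed and usually spliced like messenger RNAs but carry no long open reading frame. Many are restricted to particular cell types, and their function is in most cases inferred from where they are bound or from what their loss changes. LINC01518 also has the RefSeq alias JINR1, given for its induction by Japanese encephalitis virus. WA is a steroidal lactone of Withania somnifera that reacts with cysteine residues of many proteins, and it is known to start the heat shock and oxidative stress responses.

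In the GENCODE annotation of GRCh37 (hg19, the build the reads were mapped to) LINC01518 lies at chr10:43139893-43187171 on the minus strand and spans 47279 bases. It has 3 transcript models, LINC01518-201 with 5 exons and 600 bases, the canonical LINC01518-202 with 8 exons and 1142 bases, and LINC01518-203 with 4 exons and 1701 bases. Together their exons cover 2498 bases, so that most of the gene is intron. RefSeq gives 4 transcripts over a span of 18747 bases, and its start site lies 36 bases upstream of the GENCODE one. The counts are per gene and do not say which model the reads came from.

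**Figure D1:**
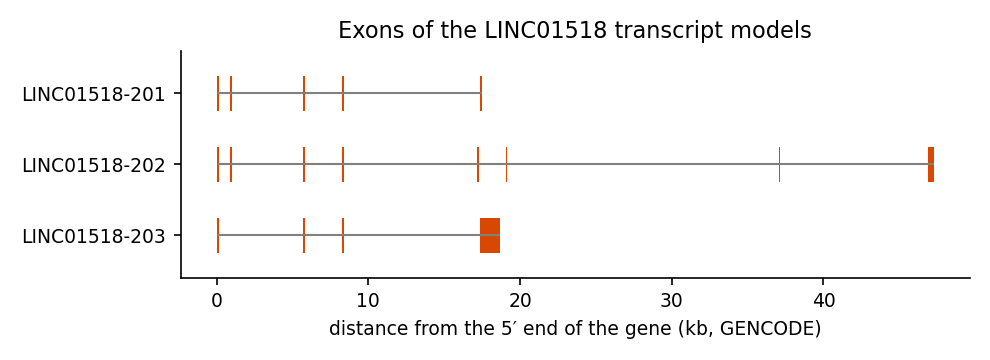
Exons (blocks) and introns (lines) of the 3 GENCODE models of LINC01518, drawn to scale except that the thinnest exons are widened to stay visible, with the distance in kb from the 5′ end of the gene on the x axis. The models LINC01518-201 and LINC01518-203 end within 18708 bases, and LINC01518-202 continues to 47278 bases.

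The only exons present with the same ends in all 3 models are a pair of internal ones. They are shown because any spliced form of the gene in this annotation carries them, and no letter is marked. Exon A lies at chr10:43181399-43181464 (66 bases) and exon B at chr10:43178806-43178908 (103 bases), both on the minus strand of GRCh37.
Shared exon A: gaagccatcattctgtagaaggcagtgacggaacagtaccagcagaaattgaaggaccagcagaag
Shared exon B: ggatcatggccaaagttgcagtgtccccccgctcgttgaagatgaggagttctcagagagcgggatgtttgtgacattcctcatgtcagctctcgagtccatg

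The RefSeq promoter is shown because the gene was read in one line and nearly absent from the other, and because its level differed with WA. It runs from 250 bases before to 50 bases after the RefSeq start site, at chr10:42691710-42692009 on the minus strand of GRCh38. The same 300 letters occur once on chromosome 10 of GRCh37, at chr10:43187158-43187457. Capitals mark the letters CCAAT or their reverse complement ATTGG, and 1 match to TGANTCA.
LINC01518 promoter: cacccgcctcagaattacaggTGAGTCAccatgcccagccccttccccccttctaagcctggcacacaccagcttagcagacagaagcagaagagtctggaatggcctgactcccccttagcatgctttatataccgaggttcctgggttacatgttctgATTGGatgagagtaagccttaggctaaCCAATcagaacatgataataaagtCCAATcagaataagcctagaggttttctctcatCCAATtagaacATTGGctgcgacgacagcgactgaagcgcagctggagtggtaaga

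On both strands the promoter held 5 copies of CCAAT, the letters of the CCAAT box that the factor NF-Y recognises. Their first bases lay at -90 (opposite strand), -63, -39 and -6 and at 6 (opposite strand) from the start site, with no base numbered 0. Of 35116 RefSeq promoters of the same length, 34.6% held at least 1 CCAAT and 126 (0.359%) held 5 or more. TGANTCA, the letters of an AP-1 site, occurred once at -229, and 7.71% of the promoters held it. The heat shock element core GAANNTTC and the antioxidant response element core TGACNNNGC had no match in this window, and 6.77% and 13.4% of the promoters held them. The CCAAT and AP-1 letters were picked for the search after the sequence had been read, no 2 matches overlap, and a match is a string of letters, not a binding site.

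In untreated MM1S the gene had 2 reads at passage 16, 2 at passage 22 and 1 at passage 23. With WA, MM1S had 6 reads at passage 16, 1 at passage 22 and 5 at passage 23. The MM1S groups overlap, and all 6 libraries together hold 17 reads of the gene.

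In untreated MM1R it had 243 reads at passage 4, 225 at passage 6 and 195 at passage 7. With WA, MM1R had 781 reads at passage 4, 665 at passage 6 and 877 at passage 7. The lowest MM1R library with WA stood above the highest untreated one, the untreated MM1R libraries stood above every MM1S library, and MM1R held 2986 of the 3003 reads of the gene in the series.

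On the scale of CPM after TMM scaling (trimmed mean of M-values), untreated MM1S had 0.104, 0.103 and 0.0497 CPM at passages 16, 22 and 23, a mean of 0.0856 ± 0.0310 (SD, n = 3). MM1S with WA had 0.325, 0.0534 and 0.273 CPM at the same passages, a mean of 0.217 ± 0.144 (SD, n = 3). The interval from counting error (exact Poisson, 95%) ran from 0.00126 to 0.277 CPM in the lowest untreated library and from 0.119 to 0.708 CPM in the highest with WA. The order of these groups, MM1S untreated below MM1S with WA, is thus not separated by the spread between libraries or by counting error.

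Untreated MM1R had 12.7, 12.3 and 11.4 CPM at passages 4, 6 and 7, a mean of 12.1 ± 0.67 (SD, n = 3). MM1R with WA had 41.7, 37.4 and 53.4 CPM, a mean of 44.1 ± 8.26 (SD, n = 3). The untreated libraries varied by 5.52% (coefficient of variation) where counting alone gives 6.73%, and the WA libraries by 18.7% where counting alone gives 3.59%. With WA passage 7 was highest and passage 6 lowest, and a spread over 3 cultures is itself imprecise.

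**Figure D2:**
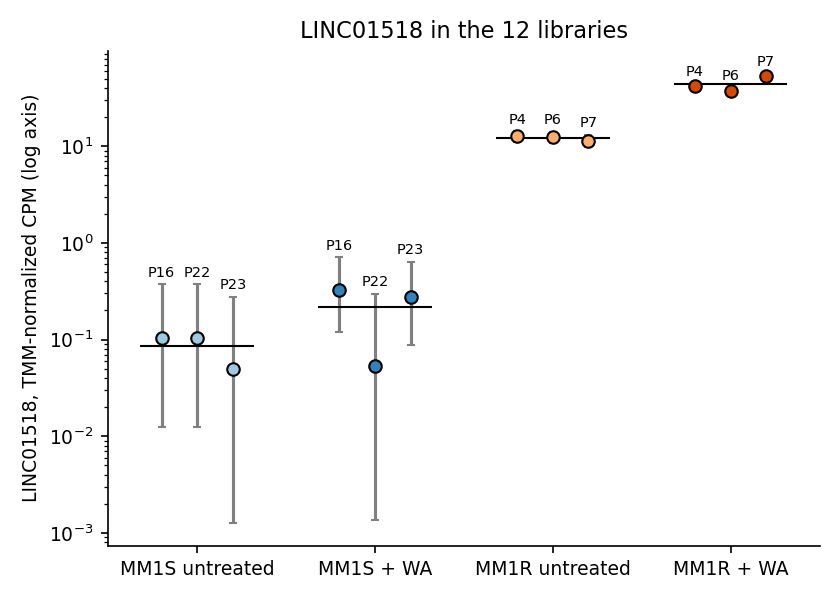
LINC01518 in each of the 12 libraries, in TMM-scaled CPM on a log axis, with points marked by passage (P), horizontal lines at the group means and bars for the exact 95% Poisson interval (at MM1R levels shorter than the points). The MM1S libraries lie at or below 0.325 CPM, the untreated MM1R libraries at 11.4 to 12.7 CPM and the MM1R libraries with WA at 37.4 to 53.4 CPM.

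Without WA the gene was 142.8 times as high in MM1R as in MM1S (663 against 5 reads), with a 95% counting interval of 60.9 to 441.2. With WA the ratio was 202.9 (2323 against 12 reads, interval 115.9 to 393.3). These intervals overlap, and their width comes from the few reads in MM1S. They cover counting error only and not the spread between cultures, and the reads carry no molecular identifiers.

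WA went with a 3.61-fold higher level in MM1R (counting interval 3.31 to 3.94). This interval pools the reads of 3 cultures and leaves out the spread between them, which was wider. The MM1R libraries with WA varied by 18.7%, where counting alone gives 3.59%. In MM1S the ratio was 2.54 on 12 against 5 reads, with an interval of 0.833 to 9.21 that includes both no change and the MM1R ratio. At this depth a difference between the lines in the fold was not detectable, so that the reads show a gene present in MM1R and higher there with WA, and leave its fold in MM1S undetermined.

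Within a passage, the log2 change of CPM with WA (0.5 CPM added) was 1.68 at passage 4, 1.56 at passage 6 and 2.18 at passage 7 of MM1R, a mean of 1.81 ± 0.33 (SD, n = 3). In MM1S it was 0.45 at passage 16, -0.12 at passage 22 and 0.49 at passage 23, a mean of 0.27 ± 0.34. The 0.5 CPM added is above every MM1S value, so that the MM1S changes are damped.

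The fitted log2 difference between the untreated lines, 7.05, was the highest of the 179 LINC genes tested and the 12th of all 14085 genes tested. The fitted log2 change with WA in MM1R, 1.86, was the 4th of the LINC genes and the 211th of all genes. Both comparisons use the same untreated MM1R libraries and both were used to choose the gene. The table of normalized signal that the authors deposited holds the same counts divided by 1 number per library, so that it is no separate evidence. It gives 231.4, 225.4 and 209.4 in untreated MM1R at passages 4, 6 and 7 and 759.6, 681.2 and 961.4 with WA.

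The change of LINC01518 in each pair of cultures is set beside genes known to respond to proteotoxic and oxidative stress. HMOX1, heme oxygenase and a target of NRF2, changed by 6.21, 6.39 and 6.85 (log2 of CPM with 0.5 added) at passages 4, 6 and 7 of MM1R and by 6.82, 5.86 and 7.31 at passages 16, 22 and 23 of MM1S. HSPA6, a strictly inducible HSP70, changed by 10.2, 9.64 and 11.5 in MM1R and by 9.74, 7.69 and 10.4 in MM1S. DNAJB1, the HSP40 partner of HSP70, changed by 4.80, 4.79 and 6.13 in MM1R and by 4.61, 3.82 and 5.85 in MM1S. In both lines these 3 genes rose by edgeR (adjusted p from 2.43e-06 to 2.04e-05).

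BAG3, a co-chaperone of HSP70, changed by 4.51, 4.75 and 5.98 in MM1R and by 4.597, 3.64 and 5.13 in MM1S. ATF3, a stress-induced transcription factor, changed by 1.15, 1.24 and 3.15 in MM1R and by 1.95, 0.16 and 2.72 in MM1S. BAG3 rose in both lines (edgeR adjusted p = 2.43e-06 in MM1R and 5.18e-06 in MM1S) and ATF3 in MM1R (edgeR adjusted p = 0.0223; 0.0816 or 0.0837 without the untreated passage 6 or 7, 0.121 without WA passage 7), with 0.0565 in MM1S. For all 5 of these genes passage 7 had the highest change in MM1R and passage 23 in MM1S.

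**Figure D3:**
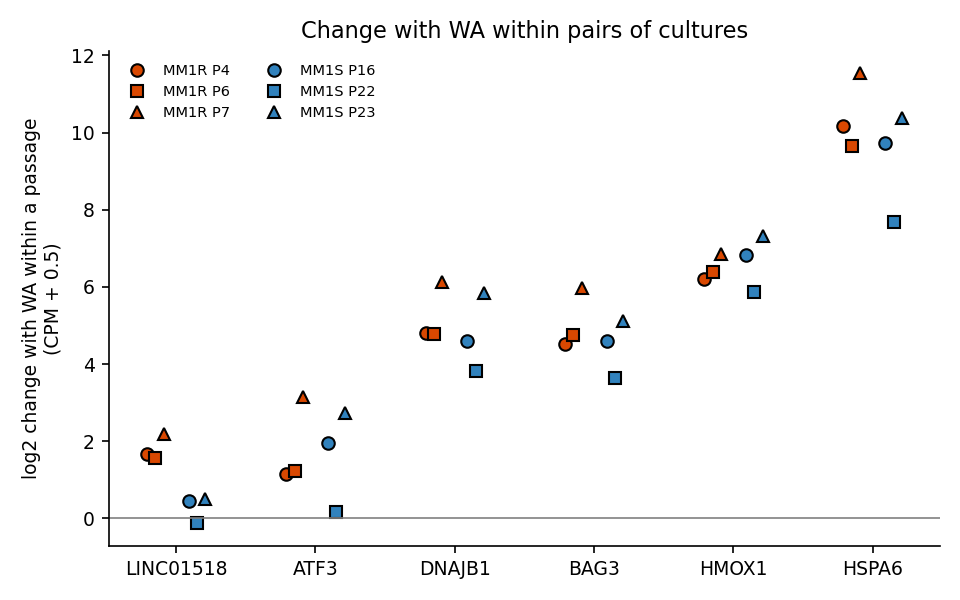
Log2 change of CPM (0.5 added) from the untreated to the WA culture of the same passage, for LINC01518 and 5 stress-response genes, with MM1R in orange and MM1S in blue and 1 symbol per passage. LINC01518 lies at 1.56 to 2.18 in MM1R and at -0.12 to 0.49 in MM1S, where the 0.5 CPM added exceeds every level and damps the change, while the ranges of the other 5 genes overlap between the lines.

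Over all 14085 genes tested, edgeR called 2.97% between the untreated lines and 3.04% between the lines with WA (adjusted p under 0.01 and log2 fold change over 1 in size), 14.0% with WA in MM1R and 10.5% with WA in MM1S (adjusted p under 0.05). The test of the difference between the lines in the WA change called 0% of genes (0 genes by edgeR, 97 at an unadjusted p under 0.05, 1 by DESeq2 and 11 with no filter on low counts).

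Of the 15 nearest genes on either side in RefSeq order, 14 had a read and 8 could be tested. These reach as far as ZNF37A, 4700672 bases away across the centromere. Between the untreated lines edgeR called 0 of the 8 (1 at an unadjusted p under 0.05, 0 by DESeq2), with 2.97% of all genes called. In a list this short 0 calls is near that share, so that the count sets these genes apart from no others. Their median log2 difference was 0.07, with 0.01 over all genes. With WA edgeR also called 0 between the lines (0 at an unadjusted p under 0.05, 0 by DESeq2; 3.04% over all genes), with a median of 0.13.

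The nearest tested gene is ZNF33B, a zinc finger gene 5875 bases away on the same strand. It had 33.3 to 38.5 CPM in the 4 group means, and its log2 difference between the untreated lines was -0.17 ± 0.12 (SE; edgeR adjusted p = 0.402). BMS1, a ribosome biogenesis gene 91072 bases away on the other side, had group means of 73.4 to 89.98 CPM and a log2 difference of 0.08 ± 0.13 (edgeR adjusted p = 0.747). Both genes were thus read in both lines, unlike LINC01518.

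Of the remaining tested neighbours, ZNF37BP, ZNF37A and CSGALNACT2 had log2 differences of -0.09 to 0.11 between the untreated lines, LOC101929540 0.29 and HSD17B7P2 -0.62. LOC441666 had the highest, 1.69 ± 0.57 (edgeR adjusted p = 0.0714), on at most 16 reads per library. RET, the receptor tyrosine kinase gene 385341 bases away, had at most 4 reads in any library.

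LINC02632, whose start lies 4289 bases from that of LINC01518 on the opposite strand, had 0 reads in all 12 libraries. LOC105378268 had 6, 12 and 3 reads in untreated MM1R at passages 4, 6 and 7 and 22, 10 and 6 with WA. In MM1S it had 6, 3 and 2 reads untreated and 3, 1 and 1 with WA, at passages 16, 22 and 23. It was too low for the filter, and in the fit with no filter its log2 difference between the lines was 2.87 ± 0.73 with WA (edgeR adjusted p = 0.00184) and 1.00 ± 0.68 untreated (edgeR adjusted p = 0.535).

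At the position of LOC105378268, GENCODE lists a noncoding RNA gene on the plus strand that overlaps the last exon of LINC01518-202 by 399 bases. Whether the counting used strand is not given in the sources used here, and reads from these 399 bases could not then be told apart. No stretch of 100 bases or more of the 3 transcript models had a match of at least 98% identity elsewhere in GRCh37. The best match of that length was 94.25%. The reads were shorter than this limit. At 50 bases or more and at least 95% identity, 3.645% of LINC01518-203 matched elsewhere, and 0% of LINC01518-201 and LINC01518-202. Alignments of any kind found elsewhere covered 33.8% of LINC01518-201, 41.1% of LINC01518-202 and 23.6% of LINC01518-203. Whether such sequence took or lost reads was not tested. The pseudogene VN1R54P lies inside an intron and overlaps no exon.

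With WA in MM1R edgeR called 1 of the 8 neighbours (12.5%, with 14.0% over all genes), and their median log2 change was 0.15, with 0.01 over all genes. The one called was HSD17B7P2, a pseudogene 4472460 bases away, across the centromere, whose reads may be shared with its parent gene HSD17B7. It had 36, 21 and 12 reads in untreated MM1R at passages 4, 6 and 7 and 72, 42 and 83 with WA, so that the groups do not overlap (log2 change 1.58 ± 0.37, edgeR adjusted p = 0.0125). The call was lost without the untreated MM1R library of passage 6 (adjusted p = 0.0574) or 7 (0.0532) or the WA library of passage 7 (0.0571), each of which left 0 calls. Without the untreated library of passage 4 there were 2 calls, ZNF37A being added, and without the WA library of MM1S passage 16 or 22 there were also 2.

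With passage as a replicate block, which called 29.1% of all genes, there were 2 calls, BMS1 being added (log2 change -0.30, edgeR adjusted p = 0.0381, and 0.139 without the block). ZNF33B changed by -0.02 ± 0.12 (edgeR adjusted p = 0.954), which is close to 0, and turned to 0.02 among genes with at least 10 reads in every library. In MM1S edgeR called 0 of the 8 neighbours with WA (0 at an unadjusted p under 0.05, 0 by DESeq2), against 10.5% of all genes, with a median log2 change of 0.29. For the difference between the lines edgeR called 0 of 8 (0 at an unadjusted p under 0.05, 0 by DESeq2).

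**Figure D4:**
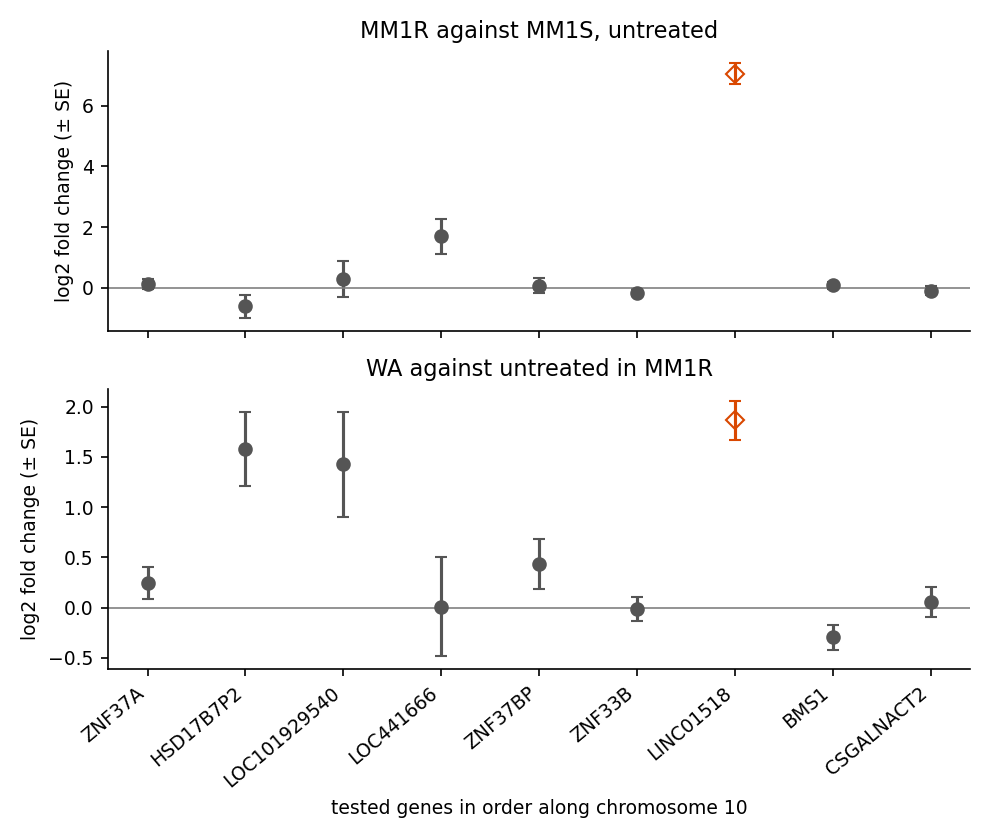
Fitted log2 fold change with its standard error for LINC01518 (open diamond) and its 8 tested neighbours (filled circles) in their order on chromosome 10, between the untreated lines (top) and with WA in MM1R (bottom). Between the lines LINC01518 stands at 7.05 and no neighbour above 1.69, and with WA in MM1R LINC01518 stands at 1.86 and HSD17B7P2 at 1.58.

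Of the 2108 LINC genes listed, 916 had a read and 179 had enough reads for the test. LINC01518, chosen on these contrasts, is left out of the counts that follow, which leaves 178. Between the untreated lines edgeR called 6 (3.37%, with 2.97% over all genes), 3 higher and 3 lower in MM1R, with a median log2 difference of 0.26. LINC01278 had 7.80 ± 1.95 CPM in untreated MM1S and 20.9 ± 1.24 in untreated MM1R (log2 difference 1.42 ± 0.19, edgeR adjusted p = 0.000366). LINC00582 had 2.77 ± 0.21 and 7.98 ± 1.56 CPM (1.52 ± 0.25, edgeR adjusted p = 0.00126).

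LINC01881 was lower in MM1R, with 2.49 ± 0.74 CPM against 6.67 ± 0.30 in MM1S (log2 difference -1.42 ± 0.22, edgeR adjusted p = 0.00101). LINC01234 was nearly the mirror of LINC01518, with 23 to 132 reads in untreated MM1S and 1 to 8 in untreated MM1R (-4.38 ± 0.72, edgeR adjusted p = 0.0014; 0.0124 without MM1R passage 6 and 0.0103 without passage 7). With WA its reads were 26 to 79 in MM1S and 1 to 3 in MM1R, and its change with WA passed the test in neither line (edgeR adjusted p = 0.567 in MM1S and 0.716 in MM1R). The strong line difference of LINC01234 thus came without a call for WA.

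With WA in MM1R edgeR called 15 of the 178 other LINC genes (8.43%, with 14.0% over all genes), 12 higher and 3 lower. With the replicate block the count was 42 (23.6%, with 29.1% over all genes under the block). It was 6 and 5 without the untreated libraries of passages 6 and 7, and 7 and 3 without the WA libraries of passages 4 and 7, where 6.57% to 9.03% of all genes were called. In MM1S it was 10 (5.62%, with 10.5% over all genes), 7 higher and 3 lower. With the block that count was 26 (14.6%, with 24.1% over all genes). It was 4 without the untreated library of passage 22 or 23 and 3 without the WA library of passage 16 or 23, where 5.03% to 6.47% of all genes were called. For the difference between the lines edgeR called 0 of 178 (3 at an unadjusted p under 0.05, 0 by DESeq2).

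LINC00519 had 2 to 3 reads in untreated MM1R and 77 to 85 with WA (edgeR adjusted p = 0.00063), and 0 to 2 and 8 to 64 in MM1S (edgeR adjusted p = 0.00286). It was read only at the floor in either line without WA, unlike LINC01518. LINC02804 went from 1.60 ± 0.47 to 4.82 ± 0.56 CPM in MM1R (log2 change 1.59 ± 0.26, edgeR adjusted p = 0.00158) and from 1.68 ± 0.32 to 4.97 ± 1.08 in MM1S (1.56 ± 0.26, edgeR adjusted p = 0.00186). LINC01480 fell in both lines, by 1.59 on the log2 scale in MM1R (edgeR adjusted p = 0.00668) and by 1.49 in MM1S (edgeR adjusted p = 0.0139; 0.0603 without the WA library of passage 23). The calls of LINC00519 and of LINC02804 were kept in each alternative that could test them.

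Next in size among the called increases in MM1R with a mean of at least 1 CPM were LINC01004 and LINC02603. LINC01004 changed by 1.56 on the log2 scale (edgeR adjusted p = 0.0141, and 0.062 without WA passage 7) and LINC02603 by 1.44 (edgeR adjusted p = 0.0315). Further decreases were those of LINC01018 (-1.15, edgeR adjusted p = 0.0256) and LINC01311 (-1.08, edgeR adjusted p = 0.0249). LINC02603 and LINC01018 lost the call without any 1 of the untreated libraries or of the WA libraries of passages 4 and 7 (adjusted p from 0.0547 to 0.114). LINC01311 lost it in 6 of 18 alternatives, without the untreated library of passage 4 or 7 or any WA library and with no filter (adjusted p from 0.0518 to 0.0942).

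In MM1S, LINC01061 rose (log2 change 1.27, edgeR adjusted p = 0.027) and LINC01089 rose (1.06, edgeR adjusted p = 0.0345), both lost in 5 of 18 alternatives. Both were called in MM1R too, at 1.25 (edgeR adjusted p = 0.0205) and 1.04 (edgeR adjusted p = 0.0263). LINC00673 (0.64, edgeR adjusted p = 0.0438) lost the call in 8 of 18, LINC01311 (-1.09, edgeR adjusted p = 0.0391) in 11 and LINC01963 (-0.56, edgeR adjusted p = 0.0452) in 10. The libraries of MM1S passages 22 and 23 untreated and 16 and 23 with WA were among those on which all 5 of these MM1S calls rested.

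Of 21 well-known long noncoding RNAs, 17 could be tested and 4 rose with WA in MM1R (23.5%, with 14.0% over all genes). In MM1S 2 rose (11.8%, with 10.5% over all genes). Between the untreated lines edgeR called 0 (9 at an unadjusted p under 0.05, 0 by DESeq2, with 2.97% over all genes). There ZFAS1 (log2 difference 0.72, edgeR adjusted p = 0.000836) and GAS5 (0.50, edgeR adjusted p = 0.00549) passed the limit on p but not that on the fold change. NEAT1, the scaffold of nuclear paraspeckles, went from 450 to 2535 CPM in MM1R (log2 change 2.50 ± 0.28, edgeR adjusted p = 0.000106) and from 436 to 2185 in MM1S (2.33 ± 0.28, edgeR adjusted p = 0.000175). LINC-PINT, a p53-induced transcript, rose by 1.23 ± 0.24 in MM1R (edgeR adjusted p = 0.00464) and by 1.147 ± 0.245 in MM1S (edgeR adjusted p = 0.00953). In contrast to LINC01518, these genes were read well in both untreated lines.

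KCNQ1OT1, an imprinted antisense transcript, changed by 1.27 ± 0.33 in MM1R (edgeR adjusted p = 0.0211; 0.0507 to 0.0861 without the untreated library of passage 6 or 7 or the WA library of passage 4 or 7). NORAD, which binds PUMILIO proteins, changed by 0.44 ± 0.12 (edgeR adjusted p = 0.0255; 0.054 in the fit of 6 libraries, 0.101 to 0.113 without the untreated library of passage 6 or 7 or the WA library of passage 4). MALAT1, the abundant nuclear speckle RNA, had a log2 change of 1.58 ± 0.52 and missed the limit (edgeR adjusted p = 0.0586). With the replicate block 8 of the 17 were called in MM1R, with 29.1% over all genes under the block.

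The likeness of other genes to LINC01518 was measured as Pearson's r of log2 CPM (0.5 added) over the 12 libraries. The points share libraries, lines and treatment, so that r reflects the same contrasts by which the gene was chosen. Of 14084 genes, 77 had an r above 0.95 and 0 had one above 0.99. The highest were CDKN2B (0.986), LOC105372578 (0.984), OR1J2 (0.981), ADGRG6 (0.980) and NES (0.979), followed by PLXNB2, LOC101927897, BEX1, TUBB4A and LINC01278 (0.972 to 0.976).

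CDKN2B, which encodes a CDK4/6 inhibitor, had 0 to 1 read in MM1S and 52 to 86 in MM1R, and its change with WA in MM1R was 0.45 ± 0.28 (edgeR adjusted p = 0.32). NES, which encodes the intermediate filament nestin, went from 61.1 ± 3.86 to 83.5 ± 4.50 CPM (0.45 ± 0.18, edgeR adjusted p = 0.12). ADGRG6, an adhesion G protein-coupled receptor, had the highest change of the 10, 1.19 ± 0.40, from 0.603 to 1.38 CPM (edgeR adjusted p = 0.069). All 10 were higher in untreated MM1R, which the choice by r favours, with log2 differences from 1.42 for LINC01278 to 7.13 for CDKN2B. With WA in MM1R edgeR called 0 of the 10 (4 at an unadjusted p under 0.05, 1 by DESeq2), with 14.0% called over all genes.

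Over the 6 MM1R libraries alone, 49 genes had an r above 0.99, where the points are in effect a pair of treatment groups. The highest were PPP1R26-AS1 (0.998), ZNF596, NAP1L2, CSF1 and BANP (each 0.997), and BAG3 (0.997), HSPA6 (0.995), DNAJB1 (0.994) and HMOX1 (0.987) also lay high. These genes rose with WA in MM1S too. NAP1L2, a nucleosome assembly gene, went from 13.7 to 35.9 CPM in MM1R and from 15.8 to 34.0 in MM1S (edgeR adjusted p = 0.00088 in MM1S). ZNF596 had 1.21 and 3.15 CPM in MM1R and 1.23 and 2.90 in MM1S. The choice by r over the MM1R libraries favours a change in MM1R, so that no test is given for it there. Among the tested neighbours, r over these libraries was 0.949 for LOC101929540, 0.912 for HSD17B7P2, 0.668 for ZNF37BP and 0.559 for ZNF37A. It was 0.251 for CSGALNACT2, 0.126 for LOC441666, 0.0045 for ZNF33B and -0.898 for BMS1.

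Genes read in MM1R and nearly absent from MM1S were gathered to see whether WA went with a higher level of such genes in general. With at most 3 reads in each MM1S library and a mean of at least 0.5 CPM in MM1R there were 40 genes, all tested, of which edgeR called 1 with WA in MM1R (HSPB8, with 14.0% called over all genes). HSPB8 had an untreated mean of 0.364 CPM and so passed the limit through its WA libraries. LINC01518, with up to 6 reads in MM1S, is not among them. The highest were SSX1, MAGEA6, CDKN2B, CERNA2, SAMSN1, LOC105372578, CDKN2B-AS1, LSAMP, ACOT2 and LILRB4_4, with log2 changes between -0.47 and 0.59. MAGEA6, LILRB4_4 and SSX1 belong to families of near-identical copies, among which reads may be split. Of the mirror class of 32 genes read in MM1S alone (31 tested, headed by MGST1, SPIN3 and ZNF175), edgeR called 0 with WA in MM1S (0 at an unadjusted p under 0.05, 0 by DESeq2), with 10.5% over all genes. Both classes hold genes of few reads, such as BEX1 with 5 to 12 in untreated MM1R and MYHAS with 7 to 14 in MM1S with WA. A change is harder to detect at such counts, and the part of depth in the few calls was not tested.

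A wider limit of 10 reads per MM1S library, set after the reads of LINC01518 were seen, took in 250 genes including LINC01518. Of the other 212 tested, 5 rose and 0 fell with WA in MM1R (14.0% of all genes were called in either direction). This class too holds genes of few reads, and the part of depth in its count was not tested. The mean of 0.5 CPM was taken over untreated and WA libraries, and 4 of the 5 had an untreated mean under it, so that they entered through the WA libraries and had to differ. With the limit on the untreated libraries alone, also set after the values were seen, 1 of 178 tested rose (ELFN2) and 0 fell. At an unadjusted p under 0.05 there were 3, and the median log2 change was 0.07. This limit favours genes whose untreated values lie high by chance, which pulls the change down, so that neither count is free of the choice. CDKN2A, the p16 and ARF tumor suppressor gene, had 81.2 CPM untreated and 83.9 with WA (log2 change 0.05), and the cancer-testis antigen CTAG2 had 62.3 and 51.6 CPM (-0.27). SSX1, another cancer-testis gene, had 17.0 and 18.7 CPM, and QPRT, an enzyme of NAD synthesis, 13.8 and 14.1 CPM. CPM is not corrected for gene length, so that these levels are compared within a gene only.

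The 5 that rose were HSPB8, a small heat shock protein and partner of BAG3 (log2 change 2.33 ± 0.56, edgeR adjusted p = 0.0218), ELFN2 (1.42 ± 0.43, 0.0405), VPS37D (2.54 ± 0.64, 0.0182), LOC102723811 (2.03 ± 0.46, 0.00989) and LOC105373096 (1.36 ± 0.39, 0.0308). All but ELFN2 passed the limit of 0.5 CPM only through their WA libraries, so that their p-values are not evidence of a rise. All 5 had means of at most 3.22 CPM with WA. HSPB8 went from 0.364 ± 0.130 to 1.88 ± 1.14 CPM and had 0 reads in MM1S. It lost the call without any 1 of the untreated MM1R libraries or WA passage 7 (adjusted p from 0.0547 to 0.0865), and VPS37D without untreated passage 6 (0.0914) or WA passage 7 (0.0851).

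LOC102723811 lost it without untreated passage 6 (adjusted p = 0.0598). ELFN2 lost it without any 1 of the MM1R libraries or the untreated MM1S library of passage 22 (adjusted p from 0.0541 to 0.160), and LOC105373096 in 7 of 17 alternatives, DESeq2 among them (0.0680), and without MM1R passage 4 or 7 of either group (0.0906 to 0.103). The call of LINC01518 was used to choose it and is not counted among these.

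**Figure D5:**
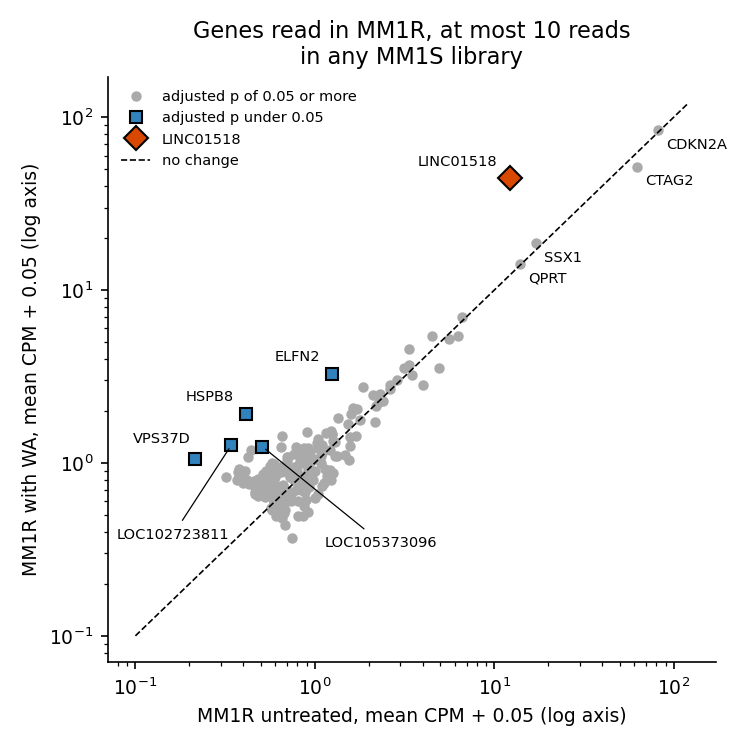
Mean CPM (0.05 added) in untreated MM1R on the x axis and in MM1R with WA on the y axis, both log axes, for the 213 tested genes with at most 10 reads in any MM1S library and a mean of at least 0.5 CPM in MM1R. Most genes lie near the dashed line of no change, 5 called by edgeR at low levels lie above it (squares), and LINC01518 (diamond) lies above it at 12.1 and 44.1 CPM. All squares but ELFN2 passed the limit of 0.5 CPM only through their WA libraries.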

How the data were processed

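RNA from 12 cultures was sequenced as paired-end reads on the BGISEQ-500 platform, and the submitters' processing notes name FastQC 0.11.5, STAR 2.7.3a, DESeq2 and hg19. The authors deposited the raw count of reads per gene, which was used for all values and tests, and a table of normalized signal, of which all nonzero values (100%) equalled the count divided by 1 number per library (tolerance 1e-06). Gene annotation and strand setting of the counting are not given in the sources used here. The gene, the lists and the comparisons were chosen with earlier results of these data known.

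Total counts per library were 17625110 to 19368343, so that 3 reads correspond to a level below 0.2 CPM. Tests used the quasi-likelihood test of edgeR 4.0.16 (R 4.3.3, limma 3.58.1) on all 12 libraries with filterByExpr (minimum count 10), TMM scaling and Benjamini-Hochberg adjustment over 14085 genes. The limits were an adjusted p of 0.01 with a log2 fold change of 1 between lines and an adjusted p of 0.05 for WA. The test was run on simulated counts with the same spread for every gene, no passage effect and changes only in genes of higher counts. That check does not cover genes near the floor or differences between passages. LINC01518 was described by reads, CPM, exact Poisson intervals and exact conditional intervals of count ratios.

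Named genes were the tested neighbours and the 3 nearest on either side, the 10 and 5 genes of highest r over 12 and 6 libraries, the 10 and 3 of highest mean in the classes of line-specific genes, and up to 5 LINC genes per direction and comparison with a mean of at least 1 CPM. Further named were a list of known long noncoding RNAs and stress markers (HSPA1A was listed at 0 in all libraries). The genes of the wider class and RET were named after their values were seen.

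The main tests compared group means and did not use passage. Passage was taken as pairing the cultures of a line only for the within-passage changes and the replicate block. With WA the block called 29.1% of genes in MM1R, against 14.0% in the main test. In MM1S it called 24.1%, against 10.5%. The labels give passage, and every same-passage correlation of deviations from the group mean was over 0.1 (0.744, 0.262 and 0.491 in MM1S, 0.427, 0.221 and 0.254 in MM1R). The highest correlation with another passage was -0.466, 0.347 and 0.419 in MM1S and -0.195, -0.0888 and 0.106 in MM1R. For MM1S passage 22 it exceeded the same-passage value, and for MM1S passage 23 it was close to it, so that the values bear out the pairing there poorly. No 2 replicates were 1 library, with a chi-square per degree of freedom of 8.74 to 48.7. Alternatives were DESeq2 1.42.0 and its size factors, no filter, at least 10 reads in every library, the 6 libraries compared, passage as replicate block and each library left out in turn. Promoters came from RefSeq (GRCh38.p14), exons from GENCODE on GRCh37.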

Additional observations from a re-analysis of the deposited data

How the results depend on the processing

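The log2 change of LINC01518 with WA in MM1R was 1.82 from the group means (1.67 to 1.93 with each library left out), and its log2 ratio of MM1R to MM1S was 7.15 untreated (6.87 to 7.31) and 7.67 with WA (7.21 to 8.08). The mean of the within-passage changes, already given above, was 1.81. None of the scalings or pseudocounts tried turned these values or moved them beyond the spread between replicates. The number of LINC genes called between the untreated lines, LINC01518 included, was 7, with 14 under no filter on low counts and 3 where each library needed 10 reads, so that fewer genes were tested (6 to 8 with a library left out). For WA in MM1R it was 16, with 43 under the replicate block and 4 to 19 with a library left out. For WA in MM1S it was 10, with 19 under no filter, 4 in the fit of 6 libraries, 26 under the replicate block and 3 to 11 with a library left out. Of the neighbours, 0 were called between the lines with WA and 1 (LOC105378268) under no filter. With WA in MM1R 1 neighbour was called, 2 under the replicate block and 0 to 2 with a library left out. Where not built into the alternative, the cause was not tested. Signs turned only for uncalled neighbour values near 0. ZNF33B with WA in MM1R had 0.022 where each library needed 10 reads, and LOC441666 had -0.012 under no filter and -0.0070 in the fit of 6 libraries. With a library left out, the WA change in MM1R ran from -0.093 to 0.043 for ZNF33B, -0.32 to 0.33 for LOC441666 and -0.085 to 0.22 for CSGALNACT2. The difference between untreated lines ran from -0.19 to 0.32 for ZNF37BP, -0.14 to 0.27 for ZNF37A and -0.26 to 0.044 for CSGALNACT2. Depth limits LINC01518 in MM1S, where 17 reads leave its WA fold undetermined.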
